A study of Mus musculus with 12 samples.

Results

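The genes examined here were Medag and 9 genes that mark adipocytes, the cells of fat: Adipoq, Fabp4, Plin1, Cidec, Cfd, Retn, Lpl, Pparg and Car3. They were taken by gene symbol, and all 10 were found among the 20718 genes of the table. They were chosen with results of these libraries known. Medag was chosen by its measured level in F0_5251KD and F0_3NC, the knockdown and its control, and the 9 others as the genes by which fat beside the organ would be recognised. Values in the knockdown comparison are therefore given as a description without a test.

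RNA was measured in mouse testis (strain given as IRC mouse in the labels) of the injected generation, F0, in 4 groups of 3 libraries. Per the study's methods, testes were injected with lentivirus in mice of 4 weeks of age, which were 9 weeks old after rearing. These males were then mated and kept for some further days before samples were taken. In F0_5251KD the virus had the LV3 backbone and carried a mixture of 3 short hairpin RNAs against the long non-coding RNA lncRNA5251, and in F0_3NC it was the negative control of LV3. In F0_5251OV the virus had the LV5 backbone and carried lncRNA5251 for overexpression, and in F0_5NC it was the empty LV5 vector. All 4 groups had thus received a virus, and no uninjected testis was measured. Whether libraries of 1 group stem from different animals is not stated in the labels, so p-values cover the spread from library to library, which may be technical. A batch that coincides with the backbone cannot be told apart from it.

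White adipocytes store triglyceride in 1 large droplet and secrete hormones. Pparg is the nuclear receptor that drives their differentiation. It switches on genes for fatty acid uptake (Lpl, Fabp4), for the droplet coat (Plin1, Cidec) and for secreted proteins (Adipoq, Cfd). Medag is a gene named for its part in the formation of mesenteric fat. A testis has few adipocytes inside its capsule, but the epididymal fat pad lies against it, and germ cells, Leydig cells and macrophages use some of the same lipid genes.

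The total of estimated counts was between 15431383 and 16355720 per library, a ratio of 1.06, so that an estimated count can be compared between libraries almost directly. All 10 genes passed the filter on low counts, as did 16297 genes in all. The germ cell markers summed to between 9899 and 12832 CPM (counts relative to the library total, adjusted by TMM factors) over the 12 libraries, so the labelled tissue was seen in each. Among other adipocyte markers, Lep (leptin) had 1 to 14 estimated counts, Pck1 (gluconeogenesis and glyceroneogenesis) had 1 to 13, Adrb3 (the adipocyte adrenergic receptor) had 0 to 4 and Ucp1 (the uncoupling protein of brown fat) had 0 to 1. Lipe (hormone-sensitive lipase, which testis also makes) had 4373 to 5915, and Adig (adipogenin) had 307 to 463. The 12 other markers together lay between 337 and 462 CPM, most of it Lipe. In bulk RNA, fewer cells of a type and less RNA per cell cannot be told apart.

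Per transcript length, Adipoq was the most abundant of the 10 genes, at 11.07 FPKM (fragments scaled by length and library total) over the 12 libraries. Fabp4 followed at 6.56, Cfd at 3.42, Car3 at 2.69, Medag at 1.85 and Retn at 1.70 FPKM, and Pparg, Plin1, Lpl and Cidec had means of 0.99, 0.93, 0.63 and 0.41 FPKM. This order mixed genes of very unlike spread. The range of Fabp4, from 1.28 to 20.35 FPKM, contained that of Adipoq, from 8.30 to 12.81 FPKM, so Fabp4 lay above Adipoq in some libraries and below it in others.

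**Figure D1:**
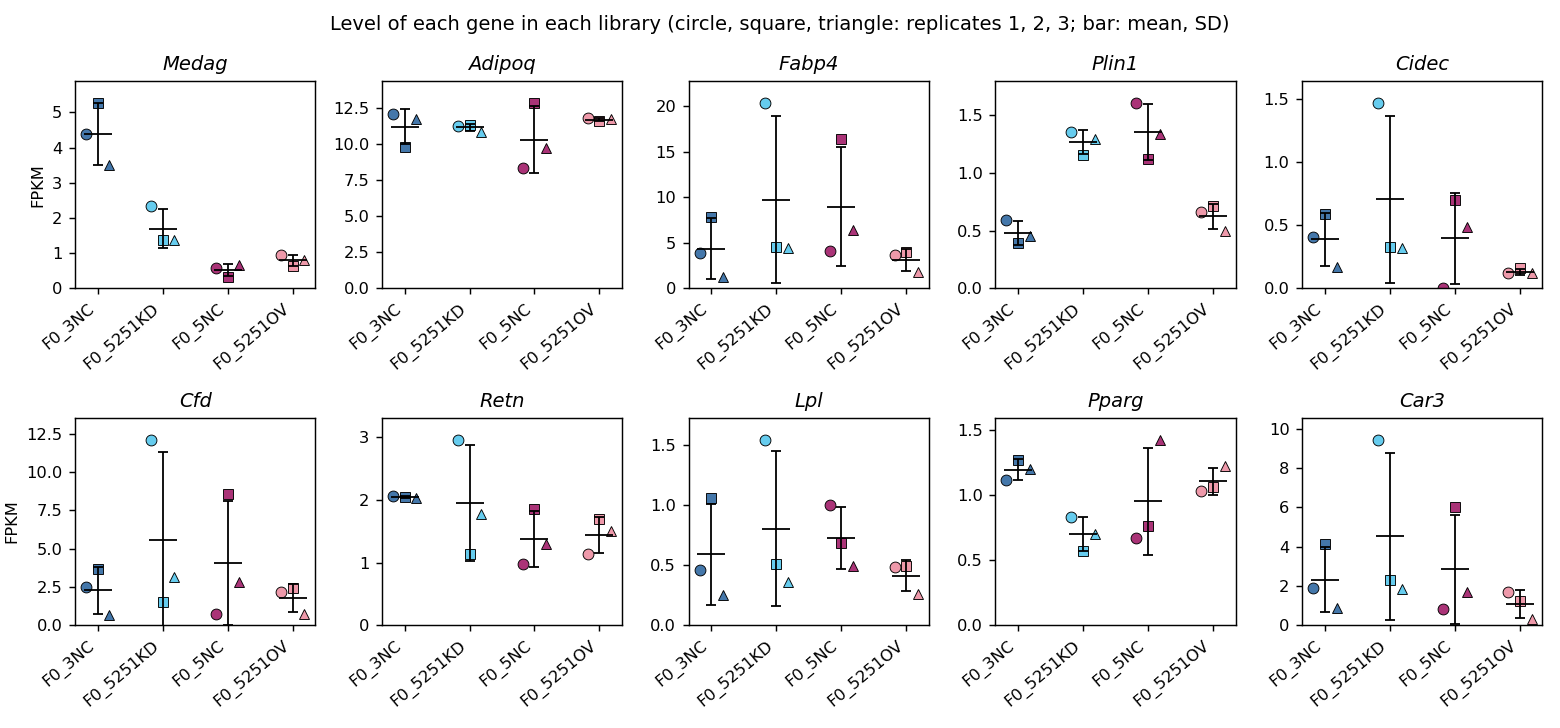
Level of each of the 10 genes in FPKM (vertical axis, each from 0) in the 4 groups (horizontal axis). Points are libraries and bars are the group mean with SD (n = 3), with lower arms that pass 0 not drawn. Medag and Plin1 separate by group, while Fabp4, Cfd and Car3 are raised by 1 library each in F0_5251KD and F0_5NC.

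The promoters of 3 of these genes are printed here, those of Medag and Plin1 because their levels differed most by group, and that of Cidec because it shared a motif with Plin1. The sequences are the 250 bases before a RefSeq start site on GRCm38.p6, read 5′ to 3′ on the strand of the gene, and capitals mark matches to the C/EBP motif TTNNGCAAT, all of them on the opposite strand. C/EBP factors act with Pparg in fat cell differentiation.
Medag, chr5:149411499-149411748, plus strand: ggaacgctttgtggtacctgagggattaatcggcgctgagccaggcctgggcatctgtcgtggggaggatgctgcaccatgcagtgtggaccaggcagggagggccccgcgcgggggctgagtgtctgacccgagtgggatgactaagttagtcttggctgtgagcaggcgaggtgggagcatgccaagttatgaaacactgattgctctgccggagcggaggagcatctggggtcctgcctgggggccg
Plin1, chr7:79732777-79733026, minus strand: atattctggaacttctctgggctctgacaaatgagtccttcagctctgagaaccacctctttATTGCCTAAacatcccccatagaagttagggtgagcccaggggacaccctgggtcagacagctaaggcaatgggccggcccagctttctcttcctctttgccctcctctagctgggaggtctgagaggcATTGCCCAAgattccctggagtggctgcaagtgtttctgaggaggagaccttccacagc
Cidec, chr6:113434765-113435014, minus strand: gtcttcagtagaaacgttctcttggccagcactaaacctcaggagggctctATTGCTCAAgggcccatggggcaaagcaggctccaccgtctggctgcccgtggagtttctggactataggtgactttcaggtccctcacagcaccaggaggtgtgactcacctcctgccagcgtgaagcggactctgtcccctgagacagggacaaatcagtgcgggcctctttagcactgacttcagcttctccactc

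The RefSeq table held promoters of 7 of the 10 genes, 11 start sites in all, and Fabp4, Lpl and Car3 had none in it. The C/EBP motif was searched on both strands and stood in 1.93% of 32851 promoter windows of this length. In Plin1 it lay at -188 to -180 and at -59 to -51 from the start, and in the first Cidec promoter at -199 to -191. No other window of these genes held it, both Medag windows included. The PPRE, the element of Pparg with its partner (the letters AGGTCA repeated after a spacer of 1 base), was in 0.0335% of all windows and in none of the 11. The single copy AGGTCA was in 14% of all windows and in 2 of the 3 Pparg windows. A match is a run of letters and no measure of binding.

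Medag (gene ID 70717, chromosome 5, 149411749 to 149431723 on the plus strand of GRCm38 in GENCODE) was highest in the LV3 control. Its estimated counts were 189, 234 and 148 in F0_3NC, and 99, 58 and 59 with the knockdown virus. In F0_5NC they were 24, 14 and 28, and in F0_5251OV 40, 27 and 35. Each library of F0_3NC thus lay above every library of the other groups, and each library of F0_5251KD above every LV5 library. The group means were 4.39 ± 0.88 FPKM in F0_3NC, 1.70 ± 0.56 in F0_5251KD, 0.52 ± 0.17 in F0_5NC and 0.80 ± 0.16 in F0_5251OV (SD, n = 3 each). In this order F0_5251OV and F0_5NC overlapped and the other neighbours did not. Gm20488 overlaps Medag on the same strand, and Gm43151 and Gm43150 overlap it on the opposite strand. None of these has a row in the table, and no step that keeps the strand is named, so their reads cannot be told apart from those of Medag.

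Adipoq, which encodes the hormone adiponectin, was nearly level. It had 208, 174 and 199 estimated counts in F0_3NC and 192, 194 and 187 in F0_5251KD. With the LV5 backbone it had 142, 219 and 168 in F0_5NC and 204, 198 and 208 in F0_5251OV. Its lowest and highest libraries were both in F0_5NC, which overlapped every other group, and F0_5251KD lay just below F0_5251OV, at 10.84 to 11.32 and 11.56 to 11.76 FPKM. The coefficient of variation (CV, the SD as a percent of the mean CPM) was 13.2% over 12 libraries, beside 7.2% from counting alone and a median CV of 12.3% over the 15167 genes that averaged 1 CPM or more.

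Fabp4, the fatty acid carrier of the adipocyte cytoplasm, varied much more. Its estimated counts were 31, 64 and 10 in F0_3NC, 161, 35 and 35 in F0_5251KD. They were 33, 130 and 51 in F0_5NC, and 28, 31 and 14 in F0_5251OV. The libraries at the top were F0_5251KD replicate 1 and F0_5NC replicate 2. The LV3 groups overlapped, as did the controls. F0_5NC lay just above F0_5251OV in estimated counts, at 33 against 31 for the nearest libraries, and in FPKM, while in CPM these groups overlapped (1.98 against 2.02). Its CV was 90.3%, beside 13.9% from counting alone.

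Cfd, or adipsin, a complement factor secreted by fat, had 31, 47 and 8 estimated counts in F0_3NC and 149, 19 and 39 in F0_5251KD, then 9, 106 and 35 in F0_5NC, and 27, 30 and 9 in F0_5251OV. Car3, a carbonic anhydrase abundant in fat and muscle, had 42, 94 and 19 in F0_3NC and 205, 50 and 41 in F0_5251KD, then 18, 131 and 37 in F0_5NC, and 38, 27 and 7 in F0_5251OV. The same pair of libraries led for both genes. Cidec, which fuses lipid droplets, was low, with 10, 15 and 4 in F0_3NC and 36, 8 and 8 in F0_5251KD, then 0, 17 and 12 in F0_5NC, and 3, 4 and 3 in F0_5251OV. Their CVs were 101.0% for Cfd, 97.4% for Car3 and 96.3% for Cidec, beside 15.4%, 13.0% and 31.6% from counting alone.

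Plin1, perilipin, the coat protein of the adipocyte droplet, had a pattern of its own. It had 16, 11 and 12 estimated counts in F0_3NC and 36, 31 and 36 in F0_5251KD, then 43, 30 and 36 in F0_5NC, and 18, 19 and 14 in F0_5251OV. All libraries of F0_5251KD and F0_5NC lay above all libraries of F0_3NC and F0_5251OV. The means were 0.48 ± 0.10, 1.26 ± 0.10, 1.35 ± 0.24 and 0.62 ± 0.11 FPKM in F0_3NC, F0_5251KD, F0_5NC and F0_5251OV (SD, n = 3 each). F0_3NC overlapped F0_5251OV, and F0_5251KD overlapped F0_5NC. The libraries with the most Fabp4 had 36 and 30 counts of Plin1, within the range of their groups.

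The remaining genes were Lpl, Retn and Pparg. Lpl, the lipase that frees fatty acids in capillaries, had 15 to 93 estimated counts and a CV of 59.0%, with F0_5251KD replicate 1 at the top. Retn, the hormone resistin, had 8 to 22 and a CV of 30.4%, close to the 27.7% that counting alone gives. Pparg had 34, 37 and 33 in F0_3NC and 23, 15 and 20 in F0_5251KD, which do not overlap, and 18, 22 and 42 in F0_5NC and 29, 31 and 36 in F0_5251OV, which do. An antisense gene, Gm44079, overlaps Pparg and has no row in the table.

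How much of each gene's spread lay between the groups was described by the share of the sum of squares of log2(CPM + 1). That share was 94.7% for Medag and 93.5% for Plin1, beside a median of 27.8% over the 15167 genes. It was 52.9% for Pparg and between 17.1% (Lpl) and 31.5% (Fabp4) for the 7 others. For the summed level of the 9 adipocyte genes it was 19.4%, and 14.0% to 31.3% with 1 library left out (31.3% without F0_5NC replicate 1 and 29.5% without F0_5NC replicate 2). That sum ran from 19.9 CPM in F0_5NC replicate 1 to 58.2 CPM in F0_5251KD replicate 1, with a median of 25.5. The spread of the sum thus lay mostly between libraries of the same group, and leaving out Adipoq, chosen after seeing the data, gave a share of 28.6%.

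**Figure D2:**
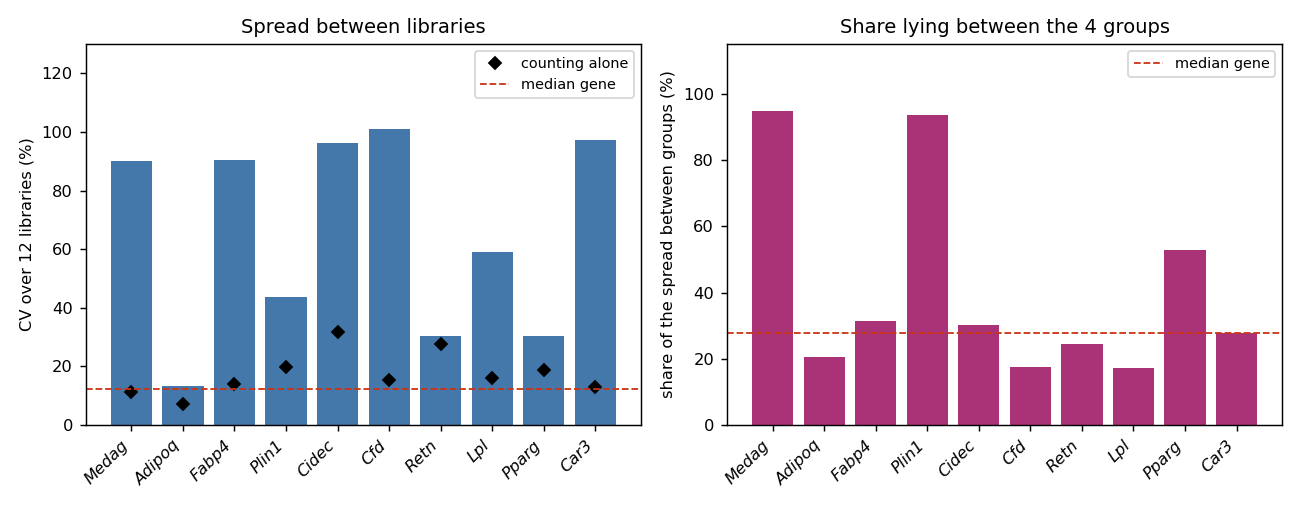
Left, CV of CPM over the 12 libraries in percent (bars) for each gene, with the CV that counting alone gives (diamonds) and the median gene (dashed line, 12.3%). Right, percent of the spread of log2(CPM + 1) that lies between the 4 groups, where Medag (94.7%) and Plin1 (93.5%) stand above the other genes and the median gene (27.8%).

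Whether the adipocyte genes moved together from library to library was tested over their 36 pairs in the 12 libraries (permutation test, two-sided, Benjamini-Hochberg adjusted over the 36). Fabp4 and Cfd had a Pearson's r of 0.94 (p = 5e-05, adjusted p = 0.00045, 100000 permutations) and a Spearman's rho of 0.88 (permutation p = 0.00031). Without the libraries farthest from the median of Cfd, r was 0.79. Fabp4 and Car3 had an r of 0.93 and a rho of 0.83 (permutation p = 8e-05 and 0.00124, adjusted p = 0.000576 for r), and r was 0.79 without the 2 farthest libraries. Within the group Fabp4, Cfd, Car3 and Cidec, which was put together after the values were seen, all 6 pairs passed, with r from 0.87 to 0.94, and from 0.76 to 0.88 without the 2 farthest libraries of each pair.

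The other pairs that passed were Fabp4 with Lpl (r 0.78, adjusted permutation p = 0.0148), Lpl with Car3 (0.72, 0.0338), Cidec with Retn (0.79, 0.0116) and Cfd with Retn (0.71, 0.0338). In all, 10 of 36 pairs passed by r, and 7 by rho, without Cidec with Retn, Cfd with Retn and Lpl with Car3 (adjusted permutation p for rho = 0.0821, 0.121 and 0.176). Leaving out the 2 farthest libraries took Fabp4 with Lpl to 0.61, Lpl with Car3 to 0.52, Cidec with Retn to 0.73 and Cfd with Retn to 0.50. No pair with Adipoq passed, with r from -0.45 to 0.32, nor did any with Plin1 or Pparg.

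The relations were also taken within each backbone, 6 libraries each, by exact permutation. Among the LV3 libraries the 6 pairs of Fabp4, Cfd, Car3 and Cidec had r from 0.94 to 0.99 and all passed by r. These genes were grouped after the values of these same libraries were seen, so that is a description. F0_5251KD replicate 1 was among the farthest libraries in each of these pairs. Their rho was 0.77 to 0.94, and by rho 0 of the 36 pairs passed there (smallest adjusted p = 0.1, exact permutation). Among the LV5 libraries r was 0.82 to 0.97 and 0 of the 6 passed, with a smallest adjusted p of 0.1 by exact permutation over the 36 pairs. With 6 libraries and 36 pairs this test, too, had little room to pass.

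The ratios of these genes within a library moved less than their levels, whose highest library was 15.49 times the lowest for Fabp4 and 17.91 times for Cfd. Cfd per Fabp4 count was between 0.273 and 1.11 and Car3 per Fabp4 count between 0.5 and 1.9, while Fabp4 per Adipoq count ran from 0.0503 in F0_3NC replicate 3 to 0.839 in F0_5251KD replicate 1. Fabp4 and Adipoq therefore did not keep a constant proportion.

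**Figure D3:**
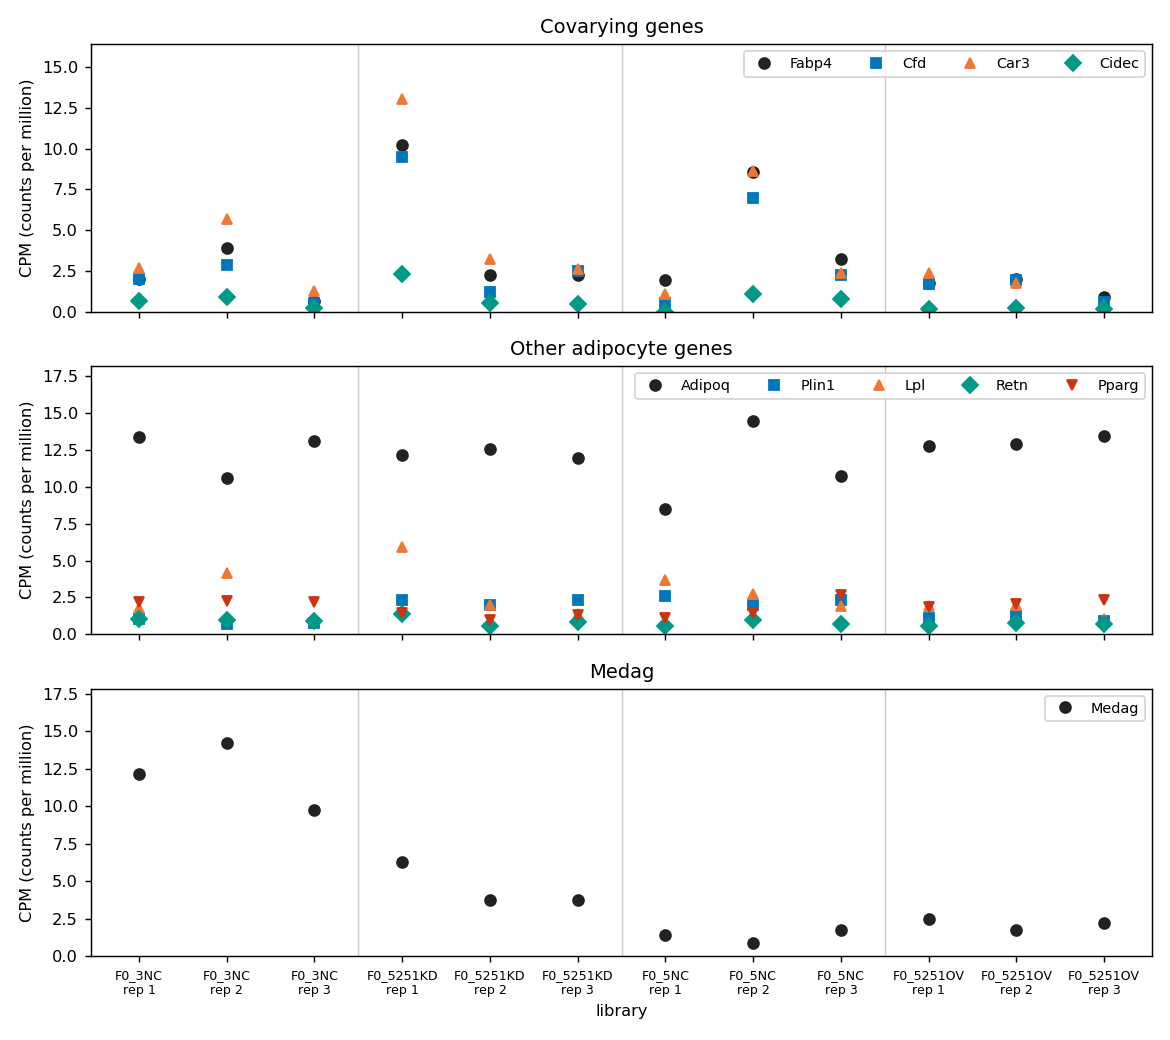
CPM (vertical axis) of the genes in each of the 12 libraries (horizontal axis), with Fabp4, Cfd, Car3 and Cidec on top, the other adipocyte genes in the middle and Medag at the bottom. The top genes peak together in F0_5251KD replicate 1 and F0_5NC replicate 2, where Medag has the highest value of the former group and the lowest of the latter.

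Medag was then set against these genes. Across the 12 libraries, which include those by which Medag was chosen, 0 of the 9 adipocyte genes passed (permutation test, adjusted over the 9), with r from -0.55 for Plin1 (rho -0.53) to 0.50 for Retn (rho 0.45) and a smallest adjusted p of 0.433. The smallest unadjusted permutation p was 0.0663, by r, and rho also gave 0 of 9. With 94.7% of the spread of Medag between groups, shuffling the 12 libraries mostly compared group levels. It therefore says little about libraries within a group. With Fabp4, r was -0.09 and rho -0.01, and with Cfd r was 0.02 and rho 0.13. F0_5251KD replicate 1, with 161 counts of Fabp4, had 99 counts of Medag, the most of its group, and F0_5NC replicate 2, with 130 counts of Fabp4, had 14, the fewest of all libraries.

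Because Medag falls into separate ranges by group, the values within each backbone were taken too. The 6 LV3 libraries are those by which Medag was chosen, so their values are a description without a test. Pparg had an r of 0.96 there and the same order of ranks as Medag, and these libraries hold the difference between F0_5251KD and F0_3NC in both genes. Fabp4 was at -0.09 and Plin1 at -0.90. Among the 6 LV5 libraries 0 of 9 passed (smallest adjusted p = 0.283, exact permutation), with r from -0.84 for Fabp4 to 0.53 for Pparg. As deviations from the group means, over all 12 libraries, 0 of 9 passed as well.

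Against the summed level of the 9 adipocyte genes, as a description, the r of Medag was 0.07 over 12 libraries and the rho 0.24. It was -0.01 in the LV3 libraries and -0.71 in the LV5 libraries, 0.35 as deviations from the group means, and 0.45 without the 2 libraries farthest from the median sum, F0_5251KD replicate 1 and F0_5NC replicate 2. The value thus varied with the libraries that were taken.

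**Figure D4:**
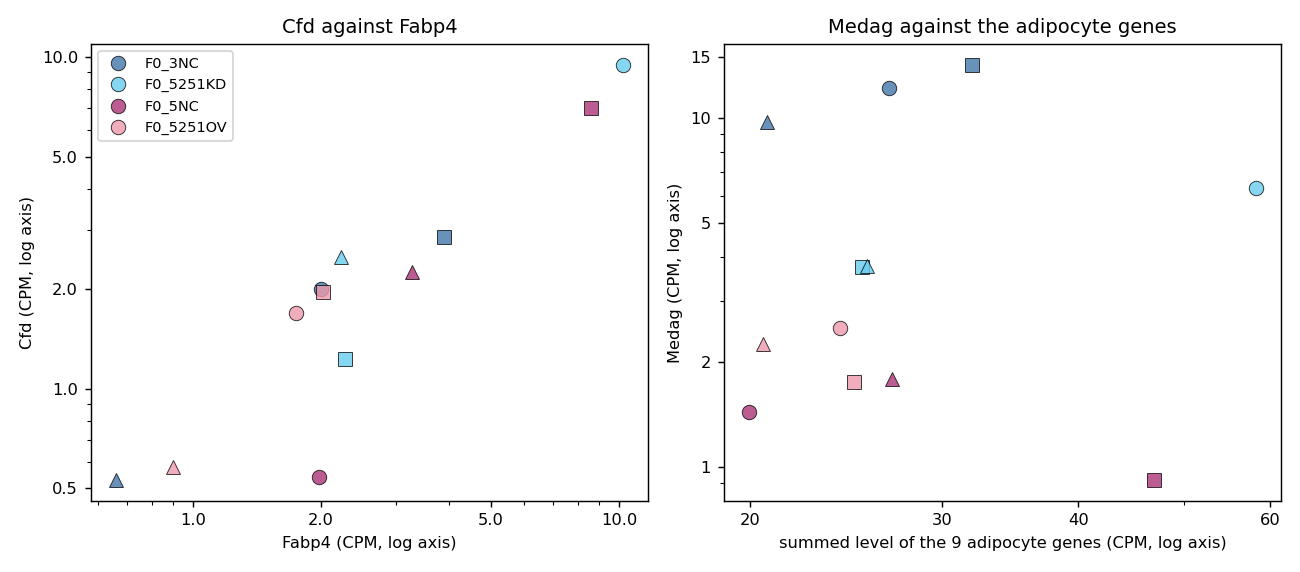
Left, Cfd against Fabp4 in CPM, and right, Medag against the summed CPM of the 9 adipocyte genes, all on log axes. Each point is a library, coloured by group, with circles, squares and triangles for replicates 1, 2 and 3. Cfd rises with Fabp4 across groups (r 0.94). Medag (r 0.07 with the sum) separates F0_3NC, F0_5251KD and the LV5 libraries, while F0_5NC and F0_5251OV overlap.

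The genes most like Medag over the 12 libraries, among 15166 other genes averaging 1 CPM or more and by Pearson's r of log2(CPM + 1), were Ccl2 (0.97), Myc (0.96), Ugdh (0.94), Vgll3 (0.94) and Bach1 (0.93). Ccl2 is a chemokine that draws monocytes, and Myc and Bach1 are transcription factors. These r values follow the group levels, and no p is given for them. On the same scale the ranked adipocyte genes stood between place 4158 (Pparg) and place 14371 (Plin1). Retn and Cidec averaged under 1 CPM and were not ranked here or below. Their r with Medag was 0.50 and 0.28, above the 0.27 of Pparg. The genes most like Adipoq were Spata18 (0.95), Eloc (0.94), Vps4a (0.93), Eif3b (0.93) and Cst8 (0.92), and its ranked fellow members stood between place 4999 (Cfd) and place 12795 (Lpl). For Fabp4, a list added after seeing the data, place 1 was Cfd, place 3 Car3 and place 4 Lpl, and place 2 was Cyp2e1 (0.94), a cytochrome P450 of liver and fat.

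Markers of other cells and of handling were set beside these values. The sum of 5 epididymis markers was 0.447 to 7.39 CPM in the LV3 libraries and 2.33 to 124 CPM in the LV5 libraries. It was 118 CPM in F0_5NC replicate 2 and 0.635 CPM in F0_5251KD replicate 1, the libraries with the most Fabp4. The library F0_5251KD replicate 1 also had the highest sums of Leydig cell markers (2950 CPM, median 2052) and of red cell genes (107 CPM, median 58.1). F0_5NC replicate 1 was close to it in Leydig cell markers, at 2919 CPM, and had 33 counts of Fabp4 and the lowest sum of the adipocyte genes. Of the other adipocyte markers, Lep and Plin4 had their highest counts in F0_5251KD replicate 1, 14 and 118. In the other 11 libraries they had 1 to 8 and 35 to 64. Pck1 was highest in F0_5NC replicate 2, at 13, as was Lipe, at 5915. In that library Lep had 2 counts, Plin4 52 and Thrsp 36, its lowest. Adig, Aoc3, Thrsp, Gpd1, Cidea and Slc2a4 had their highest counts in neither of the libraries with the most Fabp4. Over the 10 genes and 13 marker lists, 0 of 130 relations passed (permutation test, 12 libraries, Benjamini-Hochberg adjusted, smallest adjusted p = 0.144), and 5 relations shared that value. These were Plin1 with endothelium (r 0.78), Pparg with endothelium (-0.75), Lpl with stromal cells (0.75), Adipoq with macrophages (-0.76) and with germ cells (0.75). Without the 2 farthest libraries the relations of Adipoq stood at -0.21 and 0.33. Those of Plin1, Pparg and Lpl stood at 0.69, -0.71 and 0.66. The part of these cells in the levels of the 10 genes was not tested further.

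A list of 7 immediate early genes, which respond to handling and stimulation within minutes, moved with the groups in which Medag differed. Its sum was 108 to 119 CPM in F0_3NC, 218 to 277 in F0_5251KD, 19.4 to 28.8 in F0_5NC and 15.5 to 20.5 in F0_5251OV. The order of F0_3NC and F0_5251KD was the reverse of that in Medag. The part of this in the Medag levels was not tested.

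Whether overexpression of lncRNA5251 altered the 10 genes was tested in F0_5251OV vs F0_5NC, which holds no library of the knockdown comparison (edgeR quasi-likelihood test, adjusted over 16297 genes). None of the 10 genes passed, as none of all genes did (0%). At an unadjusted p under 0.05 there were 1430 genes (8.77%), 1 of them among the 10, and DESeq2 called 27 genes, none of the 10. Plin1 had the smallest p: its log2 fold change was -1.06 (SE 0.239, 95% interval -1.58 to -0.55, edgeR unadjusted p = 0.000611, adjusted p = 0.399), and 3 of 3 libraries of F0_5251OV lay below all of F0_5NC. In CPM it was the only gene of the 10 whose groups did not overlap, beside 13.9% of all genes. In estimated counts and FPKM the groups of Fabp4 did not overlap either.

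Medag stood at a log2 fold change of 0.65 (SE 0.301, 95% interval -0.00 to 1.30, edgeR adjusted p = 0.569), and Fabp4 at -1.55 (SE 0.725, interval -3.11 to 0.01, adjusted p = 0.57). Cidec, Car3, Cfd and Lpl had values of -1.50, -1.38, -1.19 and -0.77, Retn -0.11, Adipoq 0.22 and Pparg 0.24, with adjusted p from 0.632 to 0.945. These intervals are wide: that of Cidec ran from -3.63 to 0.63. The median of the 9 adipocyte genes was -1.06, with 7 values below 0, beside -0.00 for all genes. Without F0_5NC replicate 2 and F0_5251KD replicate 1, left out after seeing the data, it was -0.16, with 5 of 9 below 0. Without F0_5NC replicate 2 alone, Fabp4 was at -0.74, Car3 at -0.16 and Cfd at 0.04.

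The 2 control viruses were compared in F0_3NC vs F0_5NC. Of the 9 adipocyte genes 1 passed, Plin1, beside 54 of 16297 genes (0.331%), 45 of them higher and 9 lower in F0_3NC. Its log2 fold change was -1.46 (SE 0.248, 95% interval -1.99 to -0.92, edgeR adjusted p = 0.0219), with 3 of 3 libraries of F0_3NC below all of F0_5NC. It had 11 to 16 counts against 30 to 43. The 9 genes were chosen with results of these F0_3NC libraries known, so this call is not an independent test. The call was lost in a fit of these groups alone (adjusted p = 0.116), without both libraries of the highest Fabp4 (0.0653), and when F0_3NC replicate 2 (0.128), F0_3NC replicate 3 (0.101), F0_5NC replicate 1 (0.0709) or F0_5NC replicate 3 (0.0911) was left out.

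The other adipocyte genes ranged from -1.06 for Fabp4 (SE 0.696, interval -2.55 to 0.44, edgeR adjusted p = 0.542) to 0.39 for Retn (SE 0.373, adjusted p = 0.662). Their 9 values had a median of -0.25, beside 0.00 for all genes, and 0.36 without the libraries F0_5NC replicate 2 and F0_5251KD replicate 1. Medag, taken up for its level in these F0_3NC libraries, had a fitted log2 fold change of 3.11 (SE 0.272), from 1.38 ± 0.44 CPM in F0_5NC to 12.06 ± 2.23 CPM in F0_3NC (SD, n = 3), and is given without a test. Medag and Plin1 were the genes of the 10 whose groups did not overlap in CPM, beside 17% of all genes, and in FPKM Retn joined them. Of the 4 tested epididymis markers all had lower values in F0_3NC (median -5.34) and 1, Spink8, passed (edgeR adjusted p = 0.0235). Of the 7 immediate early genes 5 passed, all higher. Their part in the values of Medag and Plin1 was not tested.

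The knockdown comparison, F0_5251KD vs F0_3NC, shares the F0_3NC libraries with the last, so the values are set side by side only. Medag had a log2 fold change of -1.39 (SE 0.238), from 12.06 ± 2.23 to 4.60 ± 1.46 CPM, and lay lower in 3 of 3 libraries. Plin1 had 1.40 (SE 0.249), from 0.83 ± 0.18 to 2.20 ± 0.16 CPM, and lay higher in 3 of 3. Pparg had -0.83 (SE 0.31), without overlap between the groups. Fabp4, Cfd, Car3, Cidec and Lpl had 1.16, 1.28, 0.95, 0.85 and 0.42, with SEs of 0.536 to 0.833, and their groups overlapped. Adipoq and Retn stood at -0.01 and -0.09.

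In this comparison 4 of all 16297 genes (0.0245%) passed by edgeR and 19 by DESeq2. Of the 10 genes 3 did not overlap in CPM, beside 11.8% of all genes. The values of the Fabp4 group rested on 1 library: without F0_5251KD replicate 1, Fabp4 was at 0.03, Cfd at 0.04, Car3 at -0.15 and Cidec at -0.25, while Medag was at -1.68 and Plin1 at 1.37. The median of the 9 adipocyte genes was 0.85, and -0.15 when F0_5NC replicate 2 was left out as well.

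**Figure D5:**
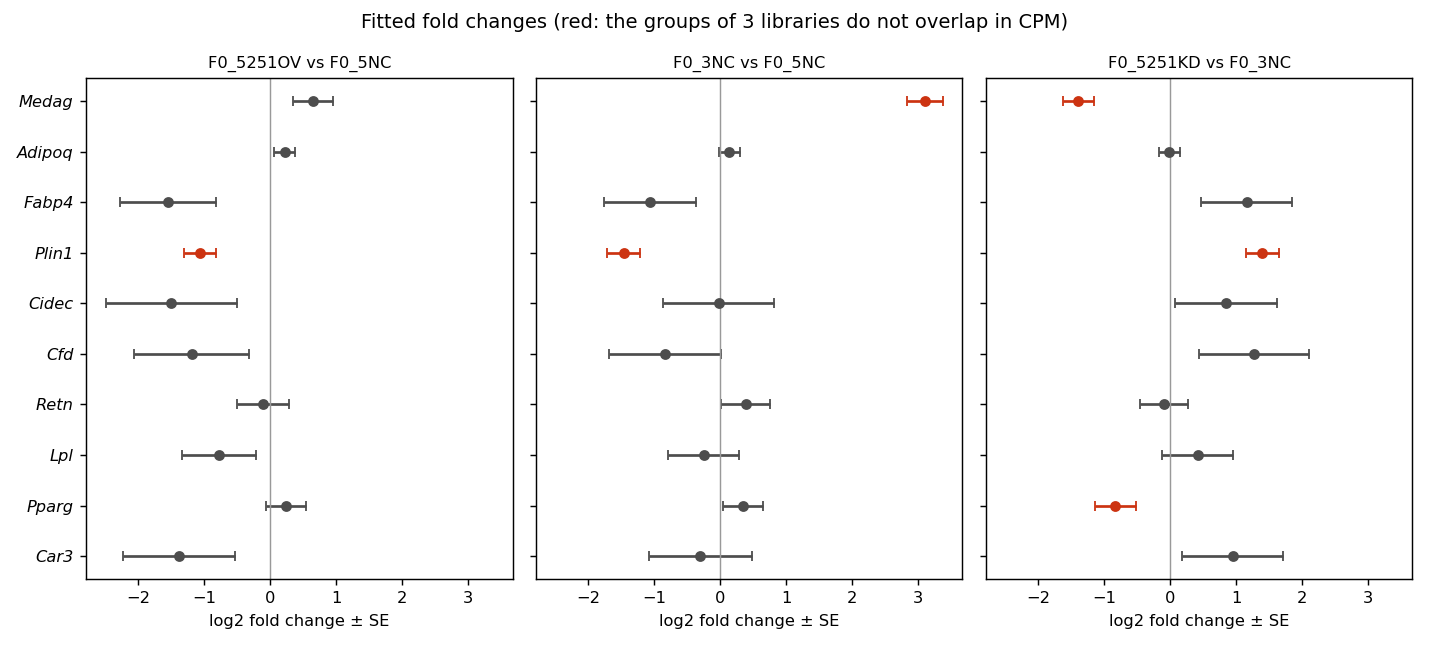
Fitted log2 fold change with its standard error (horizontal axis) for each gene (rows) in the 3 comparisons, red where the groups of 3 libraries do not overlap in CPM. Plin1 has -1.06, -1.46 and 1.40 from left to right and Medag 0.65, 3.11 and -1.39. The wide bars of Fabp4, Cfd and Car3 go with single high libraries. Cidec, also with wide bars, has a count of 0 in F0_5NC replicate 1.

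Other lipid genes were read from lists of the same pathway. In F0_5251OV vs F0_5NC, 0 genes of any list passed by edgeR. Of 8 tested adipocyte markers outside the 10 genes, 7 had values below 0 (median -0.20), from Cidea (-0.45, a droplet protein) to Slc2a4 (0.31, the insulin-responsive glucose transporter). Of 17 genes of lipid storage and lipolysis 11 lay below 0 (median -0.04), from G0s2 (-0.96, an inhibitor of triglyceride lipase) to Acsl1 (0.16, an acyl-CoA synthetase). Of 11 genes of fatty acid uptake 10 lay below 0 (median -0.26), from Angptl4 (-0.52, an inhibitor of Lpl) to Lmf1 (0.09, which matures Lpl).

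Of 10 genes of fatty acid synthesis 8 lay below 0 (median -0.14), from Mlxipl (-0.60, a carbohydrate-responsive transcription factor) to Scd1 (0.21, a desaturase). The 12 regulators of adipogenesis were split evenly (median -0.00), from Ppargc1a (-0.91, a coactivator of Pparg) to Ebf2 (0.47, a transcription factor of fat precursors). Of 11 genes of adipokines and their receptors 8 lay below 0 (median -0.10), from Irs1 (-0.80, the insulin receptor substrate) to Cdh13 (0.47, a receptor of adiponectin). In F0_3NC vs F0_5NC and in F0_5251KD vs F0_3NC, too, 0 genes of these 6 lists passed, and the list medians lay between -0.24 and 0.05 and between 0.08 and 0.20.

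Markers of other cells of the testis were read in the same comparison, F0_5251OV vs F0_5NC. All tested markers of Leydig cells (6, median -0.29), Sertoli cells (6, median -0.31), endothelium (6, median -0.31), smooth muscle (5, median -0.48) and red cells (4, median -1.11) had values below 0, as had 6 of 7 macrophage markers (median -0.34), while all 6 germ cell markers had values above 0 (median 0.08). No gene of these lists passed by edgeR. F0_5NC replicate 1 had the highest sum of Sertoli cell markers of the 12 libraries (333 CPM, median 229) and the lowest of germ cell markers (9899 CPM, median 11762). The part of this in the values of the lipid lists was not tested.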

How the data were processed

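The Medag gene, the 9 adipocyte genes and all lists were chosen with earlier results of these data known. Per the study's methods, mRNA was enriched with oligo(dT) beads, primed with random hexamers, sequenced on an Illumina HiSeq instrument and aligned to reference genes with SOAPaligner, with no step that marks the strand, and per the labels the build was mm10. No source used here names the counting tool. The authors deposited an estimated count for each gene and library, of which 12.0% were not whole (tolerance 1e-06). The authors also deposited FPKM values, a unit that the study's methods call RPKM. The table held 18 columns of samples outside the series, which were not used.

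Estimated counts were rounded and fitted with edgeR 4.0.16 in R 4.3.3 (TMM, filterByExpr, quasi-likelihood test, two-sided, Benjamini-Hochberg, threshold 0.05) in 1 fit of 12 libraries. TMM factors were 0.970 to 1.078. CPM values are TMM-scaled, and correlations used log2(CPM + 1) with 100000 permutations, or all permutations for 6 libraries. Chi-square per gene between libraries of a group was 3.73 to 20.20, so none was a repeat deposit. The tests were tried on simulated data. Named beside the 10 genes were the largest rise and fall of each lipid list in F0_5251OV vs F0_5NC and the 5 genes most like Medag and Adipoq.

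Alternative settings comprised DESeq2 1.42.0, upper-quartile scaling, other filters, limma 3.58.1 on log2 FPKM (pseudocounts 1 and 0.1), fits of 2 groups, the replicate number as a block, and leaving out libraries. Leaving out both libraries with the highest Fabp4, leaving out Adipoq from the sum, and the difference of effects were added after seeing the data. Promoters are RefSeq sequences of GRCm38.p6.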

Additional observations from a re-analysis of the deposited data

Results flagged for a closer look

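Plin1 lay on opposite sides of its control in the 2 treatments. All 3 libraries of F0_5251KD lay above all of F0_3NC, where 11.8% of all genes did not overlap. All 3 libraries of F0_5251OV lay below all of F0_5NC, where 13.9% did not overlap. The controls differed too, with a log2 fold change of -1.46 in F0_3NC vs F0_5NC. F0_5251KD overlapped F0_5NC, and F0_5251OV overlapped F0_3NC, so the pattern cannot be told apart from a difference between the controls. The difference between both effects, (F0_5251KD minus F0_3NC) minus (F0_5251OV minus F0_5NC), was 2.46 on the log2 scale (SE 0.345). It holds the knockdown comparison, whose results were known when the genes were chosen, so it is a description without a test. Of all 16297 genes, 0 passed for this difference by edgeR. Plin1 had 11 to 43 estimated counts per library. Groups of 3 libraries are too small for a test of single outlying values, so the high Fabp4 of F0_5251KD replicate 1 and F0_5NC replicate 2 was not examined in that way.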

How the results depend on the processing

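Of the 30 fold changes (10 genes, 3 comparisons), 17 kept their direction under every alternative run, those of Medag and Plin1 in all 3 comparisons among them. In 32 of 442 recomputed values the direction turned, each of them of a gene that had not passed the test. With both libraries of the highest Fabp4 left out, chosen after seeing the data, Cfd went to 0.03 and Retn to 0.14 in F0_5251OV vs F0_5NC, Cidec to 0.69, Cfd to 0.39 and Car3 to 0.92 in F0_3NC vs F0_5NC, and Cidec to -0.25, Lpl to -0.44 and Car3 to -0.15 in F0_5251KD vs F0_3NC. With limma on log2(FPKM + 0.1) and log2(FPKM + 1), Retn was at 0.09 and 0.05 in F0_5251OV vs F0_5NC and Cidec at 0.34 and 0.02 in F0_3NC vs F0_5NC. Leaving out 1 library gave, in F0_5251OV vs F0_5NC, -1.70 to 0.04 for Cfd, -0.30 to 0.14 for Retn and -0.02 to 0.71 for Pparg. In F0_3NC vs F0_5NC it gave -0.03 to 0.36 for Adipoq, -0.62 to 0.69 for Cidec, -1.35 to 0.39 for Cfd, -0.98 to 0.11 for Lpl and -1.0 to 0.92 for Car3. In F0_5251KD vs F0_3NC it gave -0.12 to 0.04 for Adipoq, -0.25 to 1.27 for Cidec, -0.53 to 0.19 for Retn, -0.45 to 1.15 for Lpl and -0.15 to 1.66 for Car3. The cause of these changes was not tested.

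The number of genes called in F0_5251OV vs F0_5NC was 0 and became 27 with DESeq2, 3 with no filter, 3 in a fit of only these groups and 0 to 1 with 1 library left out. In F0_3NC vs F0_5NC it was 54, and 134 with DESeq2 and 30 to 54 with 1 library left out (35 without F0_3NC replicate 2, 30 without F0_5NC replicate 3). In F0_5251KD vs F0_3NC it was 4, and 19 with DESeq2, 0 with limma on log2(FPKM + 0.1), 2 with limma on log2(FPKM + 1) and 0 to 4 with 1 library left out (0 without F0_3NC replicate 1 or 3 or F0_5251KD replicate 3, 1 without F0_5251KD replicate 1). Medag was chosen by its level in F0_5251KD and F0_3NC, so calls are given here for the 9 adipocyte genes only. Of these, 1 (Plin1) passed in F0_3NC vs F0_5NC, beside 0.331% of all genes, with results of the F0_3NC libraries known at the choice. Its call was lost in the fit of these groups alone and without both libraries of the highest Fabp4. It was also lost in 4 of the 6 fits with 1 library left out. For F0_5251KD vs F0_3NC, which gives no test of the 10 genes, no count is given. Medag was correlated with 0 of 9 genes, and with 1 within the LV3 libraries by which it was chosen, which is a description. The r of Medag with the summed level, 0.07, was -0.71 within LV5 libraries, 0.45 without the 2 libraries farthest from the median, which are also those of the highest Fabp4 (0.45), and -0.09 to 0.36 with 1 library left out.

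The replicate numbers did not pair the libraries (correlations of same-numbered deviations between -0.145 and 0.031). With the replicate number as a block, 2 genes were called in F0_5251KD vs F0_3NC. As deviations from group and replicate means, 2 of 9 genes, Lpl (r 0.81) and Pparg (r 0.74), passed the permutation test with Medag. Removing these means ties the deviations to each other, which the shuffling ignored. The LV3 libraries by which Medag was chosen were also among them, so both values are a description. Counts of 0 to 36 for Cidec and 8 to 22 for Retn limit what these genes can show, and FPKM values of genes this low depend on a few reads.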
